A study of Mus musculus with 16 samples.

Results

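The genes described are 42 genes of the cell division cycle, taken by gene symbol out of the 54532 genes in the deposited count and FPKM tables. They were read in 16 RNA libraries of mouse macrophages. They are grouped here as 24 mitotic genes, 17 S phase genes and 1 G1 gene, Ccnd1. The S phase class takes in genes of entry into S phase, such as Ccne1, and of preparing replication origins, such as Cdc6. The mitotic class takes in Ccna2. These names are labels and do not fix the phase in which each product acts. All 42 symbols were found once each, and all 42 passed the filter on low counts, which left 15469 genes tested.

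A dividing cell passes from G1, in which growth factors and adhesion to matrix set whether it commits to divide, through S phase, in which DNA is copied, to G2 and mitosis. D-type cyclins with CDK4 or CDK6, and then E-type cyclins with CDK2, phosphorylate the retinoblastoma proteins and so free E2F factors, which transcribe the genes of DNA replication. Mitotic genes are switched on later in the same cycle by other complexes, so a culture in which cells cycle holds the transcripts of both sets. Macrophages grown from bone marrow divide in response to CSF-1, the growth factor on which they also depend for survival.

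The macrophages came from tibial marrow of wild-type C57BL/6J mice aged 2 to 3 months. Marrow cells were held for 24 h in medium with 15% serum and 12 ng/ml CSF-1, and the cells that had not attached were then grown for 48 h with 120 ng/ml CSF-1. The attached cells were passaged once onto ordinary culture plates or onto plates treated beforehand with 10 µg/ml fibronectin, a protein of the extracellular matrix to which integrins attach, and grown to confluence. A control IgG or a neutralizing antibody to ITGAV (integrin αV) was then added at 10 µg/ml for 24 h, in a series about that integrin in macrophages after heart infarction. The 4 groups, with 4 libraries each, are called uncoated_IgG, uncoated_antiITGAV, fibronectin_IgG and fibronectin_antiITGAV. No group lacked an antibody, and both kinds of plate held confluent cells in serum, which itself contains matrix proteins. The labels do not say that the libraries of a group came from separate mice or cultures, so every p-value speaks of the spread among these libraries alone. In bulk RNA, fewer cells of a type and less RNA per cell cannot be told apart.

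Library totals ran from 27995035 to 43413650 counts. The 12 macrophage markers were all tested, and their summed level overlapped between the groups, from 32206 to 39291 CPM (counts scaled to library size, here with TMM, edgeR's factor for library composition). Most of that sum is Lyz2. In the averaged coating comparison 2 of the 12 fell, Mertk (-0.42 ± 0.059 (SE), adjusted p = 1.51e-04) and Adgre1 (-0.17 ± 0.052 (SE), adjusted p = 0.0382), and 9 of 12 were lower on fibronectin (log2 changes). Of all genes tested, 5.26% were called lower there. One library, fibronectin_antiITGAV replicate 3, stood apart. Its share of counts from genes of the mitochondrial genome was 3.67%, where the remaining 15 libraries had 1.298% to 1.597%. Its Spearman correlation, across genes, of the deviation of log2 CPM from the gene's mean with GC content was -0.72, and the other 15 ranged from -0.30 to 0.56. For several members, results on fibronectin under anti-ITGAV are therefore also given without it, or with their range over the alternative fits.

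The promoter sequences below are those of the 3 mitotic and the 3 S phase members with the highest mean CPM among members with an entry, and they are shown for elements by which S phase and mitotic promoters are commonly described. They were read from RefSeq (GRCm38.p6), which held a promoter for 34 of the 42 members. Gins2, Kif20a, Aurkb, Mcm4, Tpx2, Ccne2, Ccna2 and Ccnd1 had no entry. Each runs 5′ to 3′ on the gene's strand over the 250 bases before the RefSeq start, without bases inside the gene's bounds in the deposited table. The motifs searched on both strands were E2F sites (TTTCCCGC, TTTCGCGC, TTTGCCGC or TTTGGCGC), CHR elements (TTTGAA or TTCGAA) and CCAAT boxes (CCAAT). Capitals mark every match to any of these, and overlapping matches run together. Mki67 (chr7:135716380-135716629), Top2a (chr11:99024190-99024439), Cdk1 (chr10:69352939-69353162), Pcna (chr2:132253315-132253430) and Mcm6 (chr1:128359706-128359955) are on the reverse strand, and Rrm1 (chr7:102441445-102441694) is on the forward strand.
Mki67: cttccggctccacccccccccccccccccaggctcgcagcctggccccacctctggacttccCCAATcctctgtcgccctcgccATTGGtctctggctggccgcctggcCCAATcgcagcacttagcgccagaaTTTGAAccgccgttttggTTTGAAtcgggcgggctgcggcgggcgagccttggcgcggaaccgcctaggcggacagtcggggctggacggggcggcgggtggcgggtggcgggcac
Top2a: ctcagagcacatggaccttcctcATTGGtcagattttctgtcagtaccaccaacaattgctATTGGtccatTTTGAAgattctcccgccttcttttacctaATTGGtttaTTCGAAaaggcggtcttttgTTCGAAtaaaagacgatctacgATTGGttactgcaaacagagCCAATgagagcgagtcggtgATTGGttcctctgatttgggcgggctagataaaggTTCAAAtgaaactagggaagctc
Cdk1: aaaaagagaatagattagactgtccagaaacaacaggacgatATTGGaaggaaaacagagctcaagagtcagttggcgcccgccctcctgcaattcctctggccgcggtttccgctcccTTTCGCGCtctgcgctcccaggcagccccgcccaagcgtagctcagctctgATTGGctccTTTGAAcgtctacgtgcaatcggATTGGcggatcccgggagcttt
Pcna: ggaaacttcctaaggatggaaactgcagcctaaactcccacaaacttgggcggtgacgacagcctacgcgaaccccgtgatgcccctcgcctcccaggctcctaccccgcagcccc
Rrm1: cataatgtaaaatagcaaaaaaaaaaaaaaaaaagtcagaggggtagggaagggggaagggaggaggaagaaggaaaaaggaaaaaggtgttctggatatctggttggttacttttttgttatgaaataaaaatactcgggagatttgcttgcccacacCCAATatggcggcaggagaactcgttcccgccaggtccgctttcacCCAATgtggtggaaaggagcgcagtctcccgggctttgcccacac
Mcm6: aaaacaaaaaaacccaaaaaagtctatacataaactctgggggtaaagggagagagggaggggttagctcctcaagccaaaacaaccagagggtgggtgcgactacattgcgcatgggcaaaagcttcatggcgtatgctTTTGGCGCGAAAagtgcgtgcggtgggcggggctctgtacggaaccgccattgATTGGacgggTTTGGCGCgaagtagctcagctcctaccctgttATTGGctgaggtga

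The mitotic promoters shown carry CHR elements and several CCAAT boxes in either orientation. The Mcm6 promoter carries 3 E2F matches, 2 of which overlap, and no CHR element. In the other S phase promoters shown, Rrm1 holds CCAAT boxes only, and the Pcna stretch holds no match. Over the full 250 bases, an E2F match was present in 4 of the 14 S phase members with an entry (28.6%; Mcm5, Mcm6, Mcm7 and Cdc6), in 1 of 20 mitotic members (5%; Cdk1), and in 2.16% of the 27025 genes in the table. A CHR element was present in 9 of 20 mitotic members (45%), in 2 of 14 S phase members (14.3%) and in 19.6% of all genes. A CCAAT box was present in 18 of 20 mitotic members (90%), in 8 of 14 S phase members (57.1%) and in 37.5% of all genes. These matches describe letters in a window and do not show binding.

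On the length-normalised FPKM scale, which allows levels of different genes to be set side by side, Pcna was the highest member with a median of 156 FPKM over the 16 libraries. Ccnd1 (55.6 FPKM), Mki67 (52.4 FPKM), Ccnb2 (49.4 FPKM) and Mcm6 (48.2 FPKM) came next. The lowest were Chek1 at 2.003 FPKM and Cenpf at 4.11 FPKM. The median member stood at 21.0 FPKM among the mitotic genes and 16.7 FPKM among the S phase genes. Summed over members, mitotic genes gave 471 to 599 FPKM per library and S phase genes 371 to 619 FPKM.

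Fibronectin raised S phase genes and left most mitotic genes without a detectable change. Averaged over both antibodies, 12 of the 17 S phase members rose on fibronectin and none fell, with a median log2 change of 0.37. In the same comparison 2 of the 24 mitotic members fell, Ccnb2 and Kif20a, none rose, and the median was 0.020. Ccnd1 rose 2.42-fold. Over all genes tested, 6.58% were called higher and 5.26% lower in this comparison, and the median change was 0.0036.

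The antibodies were then taken one at a time, in coating comparisons that share no library. Both still draw on 1 estimate of each gene's spread, made from all 16 libraries. Under IgG, 4 of 17 S phase members rose (Ccne1, Cdc6, Mcm2 and Mcm3), with a median log2 change of 0.32, beside 2.37% of all genes called higher. No mitotic member was called in either direction (median -0.063; 1.42% of all genes were called lower). Under anti-ITGAV, 8 S phase members rose (Ccne1, Ccne2, Cdc6, Chek1, Mcm4, Mcm6, Pcna and Rrm2), with a median of 0.36, beside 2.84% of all genes called higher. Again no mitotic member was called (median 0.10; 2.83% of all genes were called lower). Ccne1, Cdc6 and Ccnd1 were called under both antibodies. The average above uses the libraries of both comparisons and is not separate from them.

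Without fibronectin_antiITGAV replicate 3, 10 S phase members were called under each antibody and 13 in the average, and 7 were called under both (Ccne1, Cdc6, Cdt1, Mcm3, Mcm6, Pcna and Rrm2). The share of all genes called higher was then larger too, at 5.5% under IgG, 3.04% under anti-ITGAV and 8.91% in the average. The mitotic counts stayed at 0, 0 and 2 lower, beside 2.91%, 3.13% and 6.75% of all genes called lower. With a per-library correction for GC content and all 16 libraries, 13, 10 and 13 S phase members were called higher under IgG, under anti-ITGAV and in the average, beside 6.44%, 6.48% and 11.9% of all genes. With that correction no mitotic member was called under IgG. Under anti-ITGAV, and again in the average, 1 was called higher (Bub1) and 2 lower (Ccnb2 and Kif20a). Of all genes, 4.29%, 5.53% and 9.85% were then called lower under IgG, under anti-ITGAV and in the average.

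**Figure D1:**
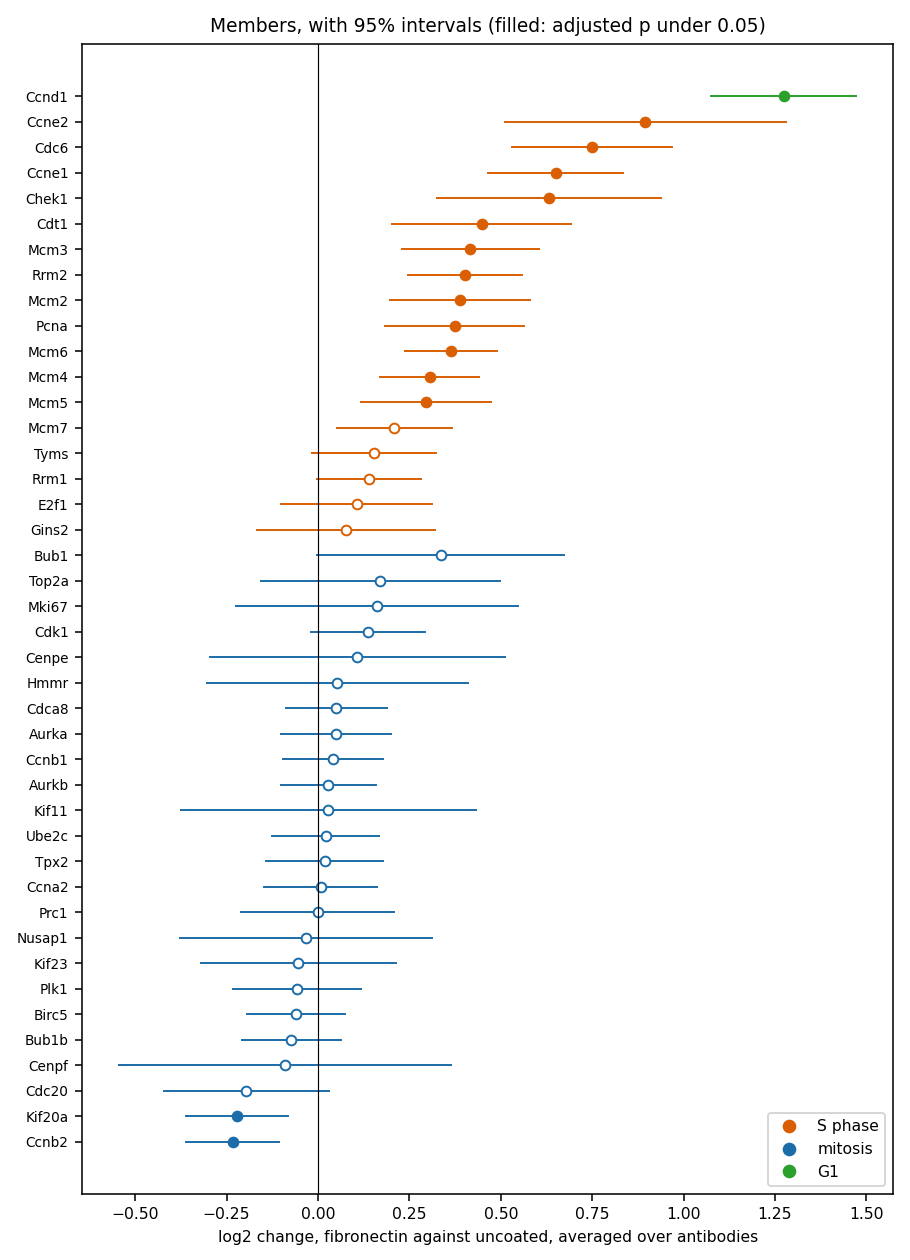
Log2 change of each of the 42 genes (x axis) on fibronectin against uncoated plates, averaged over both antibodies, with 95% intervals from the edgeR fit to all 16 libraries. Filled points have an adjusted p under 0.05: 12 of 17 S phase genes and Ccnd1 lie above 0, and Ccnb2 and Kif20a lie below it.

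Ccnd1 encodes cyclin D1, the partner of CDK4 and CDK6 whose transcription responds to growth factors and adhesion in many cell types (ENSMUSG00000070348, chr7:144929931-144939925, reverse strand; gene bounds are those of the deposited table, on GRCm38.p6). Ccnd1 read 134, 155, 167 and 199.7 CPM in the uncoated_IgG libraries and 198, 162, 174 and 127 CPM in uncoated_antiITGAV. Ccnd1 on fibronectin read 388, 423, 427 and 421 CPM under IgG and 337, 365, 388 and 439 CPM under anti-ITGAV. Every fibronectin library was above every uncoated library, with a gap between 199.7 and 337 CPM. The log2 change on fibronectin was 1.34 ± 0.13 (SE), adjusted p = 2.50e-05, under IgG and 1.21 ± 0.13 (SE), adjusted p = 8.92e-05, under anti-ITGAV. Averaged over antibodies it was 1.27 ± 0.094 (SE), adjusted p = 2.77e-07. It was the member with the largest change in the average and kept its call under all 27 alternatives run.

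Cyclin E proteins activate CDK2 at the entry into S phase. Ccne1 read 13.2, 17.2, 16.2 and 18.3 CPM in the uncoated_IgG libraries and 17.9, 15.3, 16.9 and 15.9 CPM in uncoated_antiITGAV. Ccne1 on fibronectin read 23.4, 26.9, 26.8 and 24.4 CPM under IgG and 25.5, 27.5, 30.2 and 20.7 CPM under anti-ITGAV. All 8 fibronectin libraries were above all 8 uncoated ones. Ccne1 (ENSMUSG00000002068, chr7:38097984-38107534, reverse strand) rose by a log2 change of 0.64 ± 0.12 (SE), adjusted p = 0.006398, under IgG and 0.66 ± 0.12 (SE), adjusted p = 0.00517, under anti-ITGAV.

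Ccne2 read 13.8, 18.9, 21.4 and 12.8 CPM in the uncoated_IgG libraries and 11.8, 10.998, 11.8 and 13.9 CPM in uncoated_antiITGAV. Ccne2 on fibronectin read 28.6, 15.95, 18.5 and 29.97 CPM under IgG and 25.3, 20.4, 49.1 and 25.6 CPM under anti-ITGAV. Under IgG the coating groups of Ccne2 overlapped, and under anti-ITGAV they did not. Its log2 change was 0.48 ± 0.26 (SE), adjusted p = 0.412, under IgG and 1.31 ± 0.26 (SE), adjusted p = 0.00704, under anti-ITGAV. The highest library was fibronectin_antiITGAV replicate 3, without which the change under anti-ITGAV was 0.97 (adjusted p = 0.0166). With the correction for GC content it was 0.79 (adjusted p = 2.19e-04) under anti-ITGAV and 0.56 (adjusted p = 0.00452) under IgG. The difference between the antibodies, the interaction, was 0.84 ± 0.36 (SE), adjusted p = 0.646. It was 0.50 (adjusted p = 0.845) without fibronectin_antiITGAV replicate 3 and 0.23 (adjusted p = 0.9600) with the GC correction.

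Licensing of replication origins needs CDC6 and CDT1, which load the MCM2-7 helicase onto the origin recognition complex. Cdc6 read 16.2, 19.6, 19.4 and 21.9 CPM in the uncoated_IgG libraries and 20.6, 15.4, 18.7 and 16.04 CPM in uncoated_antiITGAV. Cdc6 on fibronectin read 29.6, 32.5, 32.8 and 26.95 CPM under IgG and 26.2, 26.7, 41.3 and 32.2 CPM under anti-ITGAV. The lowest fibronectin library was above the highest uncoated library. Cdc6 (ENSMUSG00000017499, chr11:98907801-98923940, forward strand) rose by a log2 change of 0.66 ± 0.15 (SE), adjusted p = 0.0164, under IgG and 0.84 ± 0.15 (SE), adjusted p = 0.00325, under anti-ITGAV. The call under IgG was lost when 1 of 4 libraries was left out, uncoated_IgG replicates 1, 2 or 3 or fibronectin_IgG replicate 3, with a highest adjusted p of 0.0802. The highest library of Cdc6 was fibronectin_antiITGAV replicate 3. Over the alternatives the change under anti-ITGAV ran from 0.67 to 0.92, and the call was kept in 28 of 28. Cdt1 ranged over 40.2 to 56.5 CPM in the 8 uncoated and 36.6 to 74.2 CPM in the 8 fibronectin libraries. Only fibronectin_antiITGAV replicate 3, at 36.6 CPM, was below any of the uncoated libraries. The averaged log2 change of Cdt1 was 0.45 ± 0.12 (SE), adjusted p = 0.0165, and without that library 0.54 (adjusted p = 4.20e-05).

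The 6 MCM subunits form 1 ring that unwinds DNA ahead of the fork, and 5 of the 6 rose in the average. Mcm6 read 175, 205, 206 and 222 CPM in the uncoated_IgG libraries and 193, 187, 210.3 and 184 CPM in uncoated_antiITGAV. Mcm6 on fibronectin read 247, 235, 257 and 253 CPM under IgG and 253, 249.6, 288 and 253 CPM under anti-ITGAV. Mcm6 was higher in every fibronectin library than in any uncoated one. It had a log2 change of 0.30 ± 0.084 (SE), adjusted p = 0.0595, under IgG, short of the threshold, and of 0.43 ± 0.084 (SE), adjusted p = 0.00652, under anti-ITGAV. The averaged change was 0.36 ± 0.060 (SE), adjusted p = 5.85e-04, the most precise of the 6.

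Mcm2 read 75.8, 80.3, 83.1 and 98.4 CPM in the uncoated_IgG libraries and 102, 78.8, 86.8 and 73.3 CPM in uncoated_antiITGAV. Mcm2 on fibronectin read 112, 129.9, 125 and 121 CPM under IgG and 104, 109, 76.8 and 115 CPM under anti-ITGAV. In Mcm2 the IgG coating groups were separate, while the anti-ITGAV groups overlapped through fibronectin_antiITGAV replicate 3. Its log2 change was 0.53 ± 0.13 (SE), adjusted p = 0.0278, under IgG and 0.25 ± 0.13 (SE), adjusted p = 0.268, under anti-ITGAV. Without the library that stood apart the value under anti-ITGAV was 0.36 (adjusted p = 0.0536).

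Mcm3 read 105, 118, 125 and 152 CPM in the uncoated_IgG libraries and 136, 116, 133 and 104 CPM in uncoated_antiITGAV. Mcm3 on fibronectin read 152, 187, 183 and 169 CPM under IgG and 159, 157, 131 and 182 CPM under anti-ITGAV. The Mcm3 groups were separate under IgG by a narrow margin and overlapped under anti-ITGAV through the library that stood apart. Its averaged log2 change was 0.42 ± 0.089 (SE), adjusted p = 0.004499, while the call under IgG (0.0462) was kept in 5 of the 16 fits that leave out 1 library, with a highest adjusted p of 0.187. For Mcm2 the call under IgG was kept in 10 of those 16 fits, with a highest adjusted p of 0.119.

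Mcm4 read 79.5, 85.6, 95.04 and 80.2 CPM in the uncoated_IgG libraries and 76.6, 78.5, 83.03 and 82.1 CPM in uncoated_antiITGAV. Mcm4 on fibronectin read 102, 86.7, 104 and 117 CPM under IgG and 104, 101, 98.4 and 104 CPM under anti-ITGAV. Mcm4 was separate between coatings under anti-ITGAV and overlapped under IgG. The averaged log2 change was 0.31 ± 0.064 (SE), adjusted p = 0.00396. The change under anti-ITGAV was 0.35 ± 0.091 (SE), adjusted p = 0.0326, and with the GC correction 0.17 (adjusted p = 0.262).

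Mcm5 read 134, 150.3, 153 and 183 CPM in the uncoated_IgG libraries and 170.0, 138, 166 and 139 CPM in uncoated_antiITGAV. Mcm5 on fibronectin read 185, 227, 216 and 191 CPM under IgG and 177, 178, 144 and 202 CPM under anti-ITGAV. Mcm5 was separate between coatings under IgG, where its lowest fibronectin library stood at 185 CPM and its highest uncoated one at 183 CPM, and overlapped under anti-ITGAV. Its averaged log2 change was 0.30 ± 0.084 (SE), adjusted p = 0.0291. That call was kept in 6 of the 16 fits that leave out 1 library, with adjusted p up to 0.0775. Mcm7 ranged over 90.2 to 119 CPM in the 8 uncoated and 99.5 to 139 CPM in the 8 fibronectin libraries, and its averaged change of 0.21 ± 0.074 (SE), adjusted p = 0.0831, missed the threshold with all libraries. Without fibronectin_antiITGAV replicate 3 it was 0.24 (adjusted p = 0.0172). Gins2, a subunit of the GINS complex that joins the MCM ring in the active helicase, gave 0.077 ± 0.12 (SE), adjusted p = 0.745, and its libraries overlapped.

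**Figure D2:**
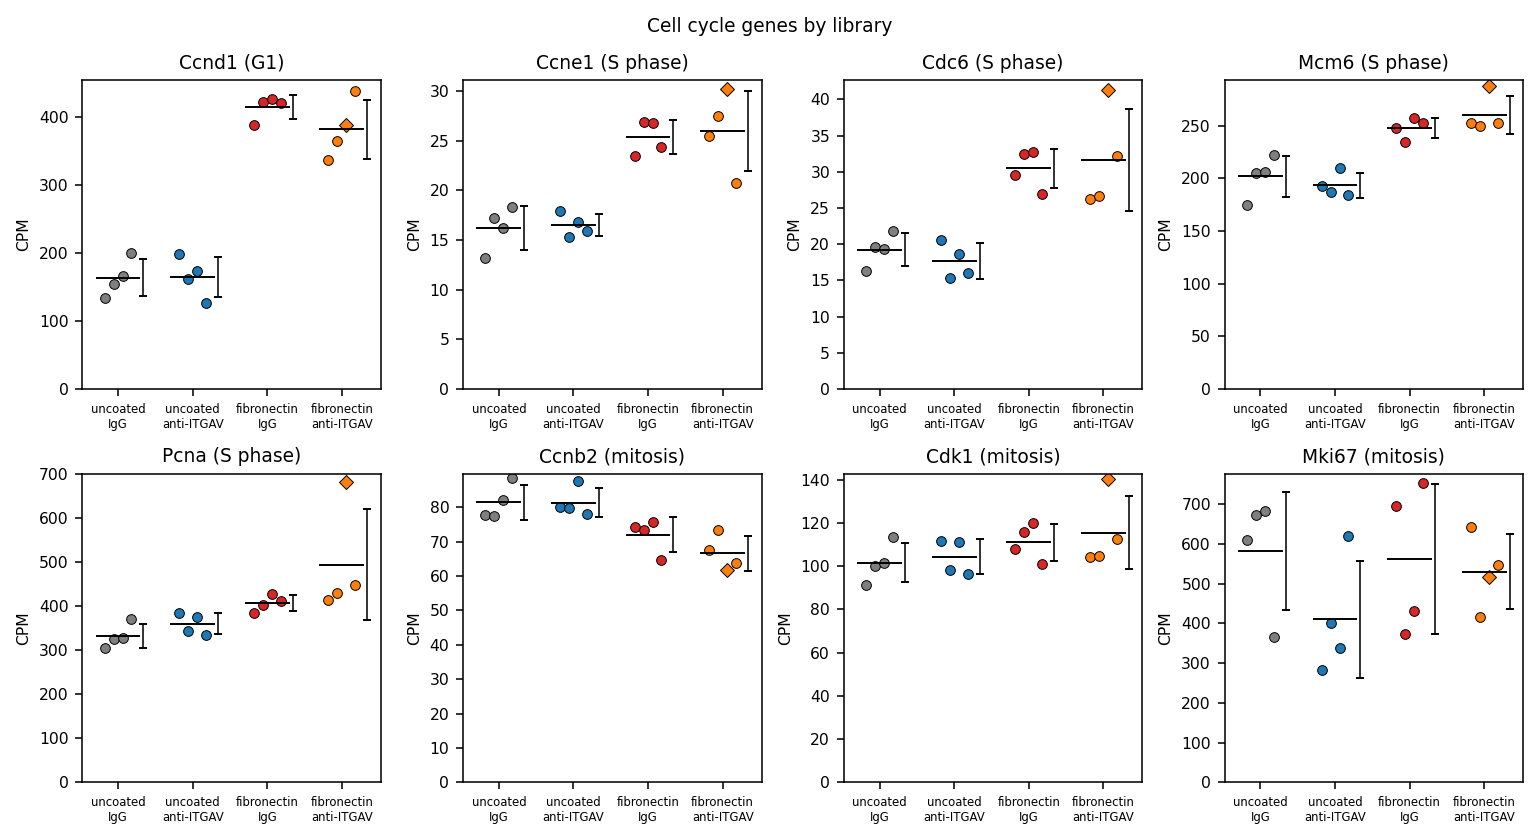
CPM (y axis, from 0) of 8 genes in the 16 libraries by group, with the group mean (line) and SD (bar, n = 4); the diamond is fibronectin_antiITGAV replicate 3. Ccnd1, Ccne1, Cdc6 and Mcm6 are higher in all 8 fibronectin libraries than in all 8 uncoated ones, Ccnb2 is lower in all 8, and Mki67 spreads widely within each group.

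Behind the helicase, PCNA is the sliding clamp of the replicative polymerases, and ribonucleotide reductase and thymidylate synthase supply deoxynucleotides. Pcna read 305, 326, 327 and 370.4 CPM in the uncoated_IgG libraries and 386, 345, 375 and 336 CPM in uncoated_antiITGAV. Pcna on fibronectin read 384, 403, 428 and 412 CPM under IgG and 414, 431, 682 and 449 CPM under anti-ITGAV. The clamp's transcript was highest in fibronectin_antiITGAV replicate 3, and the other fibronectin libraries overlapped the uncoated ones by a single library on each side (384 against 386 CPM). Its log2 change was 0.29 ± 0.13 (SE), adjusted p = 0.274, under IgG and 0.46 ± 0.13 (SE), adjusted p = 0.0444, under anti-ITGAV, with an average of 0.37 ± 0.090 (SE), adjusted p = 0.0106. Without that library the values were 0.29 (adjusted p = 0.0119), 0.26 (adjusted p = 0.04400) and 0.28 (adjusted p = 8.88e-04). With the GC correction the averaged change was 0.28 (adjusted p = 0.155), so the averaged call on Pcna ended there. Its call under anti-ITGAV was kept in 5 of the 16 fits that leave out 1 library, with adjusted p up to 0.125.

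Rrm2 read 60.7, 64.4, 71.4 and 77.9 CPM in the uncoated_IgG libraries and 69.6, 65.6, 69.1 and 61.3 CPM in uncoated_antiITGAV. Rrm2 on fibronectin read 86.8, 90.9, 91.05 and 87.8 CPM under IgG and 82.9, 80.2, 110.0 and 83.9 CPM under anti-ITGAV. Rrm2, the regulated subunit of ribonucleotide reductase, was higher in all 8 fibronectin libraries than in all 8 uncoated ones. Its log2 change was 0.38 ± 0.11 (SE), adjusted p = 0.0549, under IgG and 0.43 ± 0.11 (SE), adjusted p = 0.0236, under anti-ITGAV, and 0.40 ± 0.074 (SE), adjusted p = 0.00158, in the average. The highest library of Rrm2 was fibronectin_antiITGAV replicate 3. Over the alternatives the change under anti-ITGAV ran from 0.26 to 0.47, and the call was kept in 21 of 28. With the GC correction and that library left out, the adjusted p was 0.116. Rrm1, the other subunit, ranged over 240.3 to 287 CPM in the 8 uncoated and 274 to 373 CPM in the 8 fibronectin libraries, with an averaged log2 change of 0.14 ± 0.068 (SE), adjusted p = 0.216. Tyms, thymidylate synthase, gave 0.15 ± 0.080 (SE), adjusted p = 0.262. The intervals of Rrm1 and Tyms, -0.0019 to 0.28 and -0.016 to 0.32, include both no change and changes near that of Mcm5 (0.30).

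Chek1 encodes the checkpoint kinase that restrains the cycle when forks stall, and E2f1 encodes an E2F factor that is itself an E2F target. Chek1 read 8.78, 9.096, 10.5 and 7.46 CPM in the uncoated_IgG libraries and 4.77, 6.505, 5.87 and 9.05 CPM in uncoated_antiITGAV. Chek1 on fibronectin read 13.01, 9.69, 8.19 and 13.7 CPM under IgG and 12.98, 9.99, 15.99 and 11.6 CPM under anti-ITGAV. The coating groups of Chek1 overlapped under IgG and were separate under anti-ITGAV. Its log2 change was 0.32 ± 0.21 (SE), adjusted p = 0.534, under IgG, 0.95 ± 0.21 (SE), adjusted p = 0.0124, under anti-ITGAV and 0.63 ± 0.15 (SE), adjusted p = 0.00769, in the average. The highest library of Chek1 was fibronectin_antiITGAV replicate 3. Over the alternatives the change under anti-ITGAV ran from 0.63 to 1.15, and the call was kept in 27 of 28. The interaction was 0.63 ± 0.29 (SE), adjusted p = 0.646. It was 0.50 (adjusted p = 0.845) without that library and 0.24 (adjusted p = 0.9600) with the GC correction.

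E2f1 read 41.7, 45.2, 50.7 and 53.3 CPM in the uncoated_IgG libraries and 60.9, 51.9, 52.9 and 46.99 CPM in uncoated_antiITGAV. E2f1 on fibronectin read 57.6, 64.4, 58.5 and 58.4 CPM under IgG and 53.9, 54.5, 33.3 and 55.2 CPM under anti-ITGAV. Under IgG every fibronectin library of E2f1 was above every uncoated one, and under anti-ITGAV the groups overlapped. The share of all genes separate in this way under IgG was not counted. The log2 change was 0.32 ± 0.14 (SE), adjusted p = 0.259, under IgG and -0.11 ± 0.14 (SE), adjusted p = 0.657, under anti-ITGAV. E2f1 was lowest in fibronectin_antiITGAV replicate 3. Without that library the change under IgG was 0.32 (adjusted p = 0.0254) and under anti-ITGAV 0.037 (adjusted p = 0.881).

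Among the mitotic genes, the proliferation marker Mki67 and topoisomerase gene Top2a were the most abundant by CPM and among the most variable within groups. Mki67 read 609, 672, 682 and 366 CPM in the uncoated_IgG libraries and 283, 400.2, 337 and 619 CPM in uncoated_antiITGAV. Mki67 on fibronectin read 695, 373, 431 and 752 CPM under IgG and 643, 416, 516 and 546 CPM under anti-ITGAV. The uncoated libraries of Mki67 spanned 283 to 682 CPM and the fibronectin libraries 373 to 752 CPM, so the groups overlapped almost entirely. The averaged log2 change was 0.16 ± 0.18 (SE), adjusted p = 0.6503, with an interval from -0.23 to 0.55.

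Top2a read 346, 387, 378 and 260.1 CPM in the uncoated_IgG libraries and 189, 249.8, 222 and 362 CPM in uncoated_antiITGAV. Top2a on fibronectin read 398, 220.2, 269 and 419 CPM under IgG and 389, 262, 396 and 313 CPM under anti-ITGAV. The coating groups of Top2a overlapped, and as in Mki67 uncoated_antiITGAV replicate 1 was the lowest of the 16 libraries and fibronectin_IgG replicate 4 the highest. Its averaged log2 change was 0.17 ± 0.15 (SE), adjusted p = 0.555. Its interval, -0.16 to 0.50, and that of Mki67 both hold the averaged change of Mcm6, so a change of that size was not excluded in either gene.

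Cdk1 and the B cyclins drive entry into mitosis and varied far less. Cdk1 read 91.4, 100.3, 101 and 113 CPM in the uncoated_IgG libraries and 112, 98.2, 111 and 96.6 CPM in uncoated_antiITGAV. Cdk1 on fibronectin read 108, 116, 119.8 and 101 CPM under IgG and 104, 105, 140.4 and 112 CPM under anti-ITGAV. Cdk1 overlapped between coatings, with fibronectin_antiITGAV replicate 3 the highest library. The averaged log2 change of Cdk1 was 0.14 ± 0.074 (SE), adjusted p = 0.281.

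Ccnb1 read 100.04, 110.3, 109.7 and 102 CPM in the uncoated_IgG libraries and 95.6, 105, 105 and 99.5 CPM in uncoated_antiITGAV. Ccnb1 on fibronectin read 107, 92.02, 98.6 and 114 CPM under IgG and 114, 96.9, 125 and 104 CPM under anti-ITGAV. Ccnb1 overlapped between all 4 groups. Its averaged log2 change was 0.041 ± 0.065 (SE), adjusted p = 0.7602, with an interval from -0.096 to 0.18, which leaves out the averaged changes of Ccne1, Cdc6, Mcm6 and Rrm2.

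The 2 mitotic members that fell did so by small amounts. Ccnb2, the other B cyclin, ranged over 77.5 to 88.4 CPM in the 8 uncoated and 61.7 to 75.6 CPM in the 8 fibronectin libraries. Its averaged log2 change was -0.23 ± 0.060 (SE), adjusted p = 0.0154, and without a filter on low counts the adjusted p was 0.0606. Kif20a, a kinesin needed for cytokinesis, ranged over 68.3 to 80.2 CPM in the 8 uncoated and 48.9 to 67.5 CPM in the 8 fibronectin libraries and changed by -0.22 ± 0.066 (SE), adjusted p = 0.0364. The Kif20a call was kept in 11 of the 16 fits that leave out 1 library (adjusted p up to 0.0828) and was lost without a low-count filter (adjusted p = 0.106). Kif20a overlaps Cdc23 on the opposite strand, so reads of the 2 genes there may not be told apart.

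The other 18 mitotic members, which include the spindle checkpoint genes Bub1 and Bub1b, the Aurora kinases Aurka and Aurkb, the kinase Plk1, and the kinesins and kinetochore genes, had averaged log2 changes between -0.20 (Cdc20) and 0.34 (Bub1), and none was called. Bub1 gave 0.62 ± 0.23 (SE), adjusted p = 0.122, under anti-ITGAV. With the GC correction Bub1 gave 0.27 (adjusted p = 0.0198) there and 0.21 (adjusted p = 0.00665) in the average, the only mitotic member called higher with it.

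The mitotic members differed widely in their spread. Their SD of log2 CPM within groups ran from 0.095 (Ccnb2) to 0.50 (Cenpf), while the S phase members ran from 0.10 (Mcm6) to 0.40 (Ccne2). The most variable mitotic genes, Cenpf, Kif11, Cenpe, Mki67, Hmmr, Nusap1, Bub1 and Top2a, had a GC content between 40.6% and 46.7%, against a median of 47.2% over the mitotic members. Across the 24 mitotic genes the Spearman correlation of that SD with GC content was -0.65, and across the 17 S phase genes 0.15, as a description over genes that share libraries. In uncoated_antiITGAV replicate 1, lowest for Mki67, the correlation across genes of expression deviation with GC content was 0.52, and in fibronectin_IgG replicate 4, highest for Mki67, it was -0.26. The part of GC content in these spreads was not tested.

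**Figure D3:**
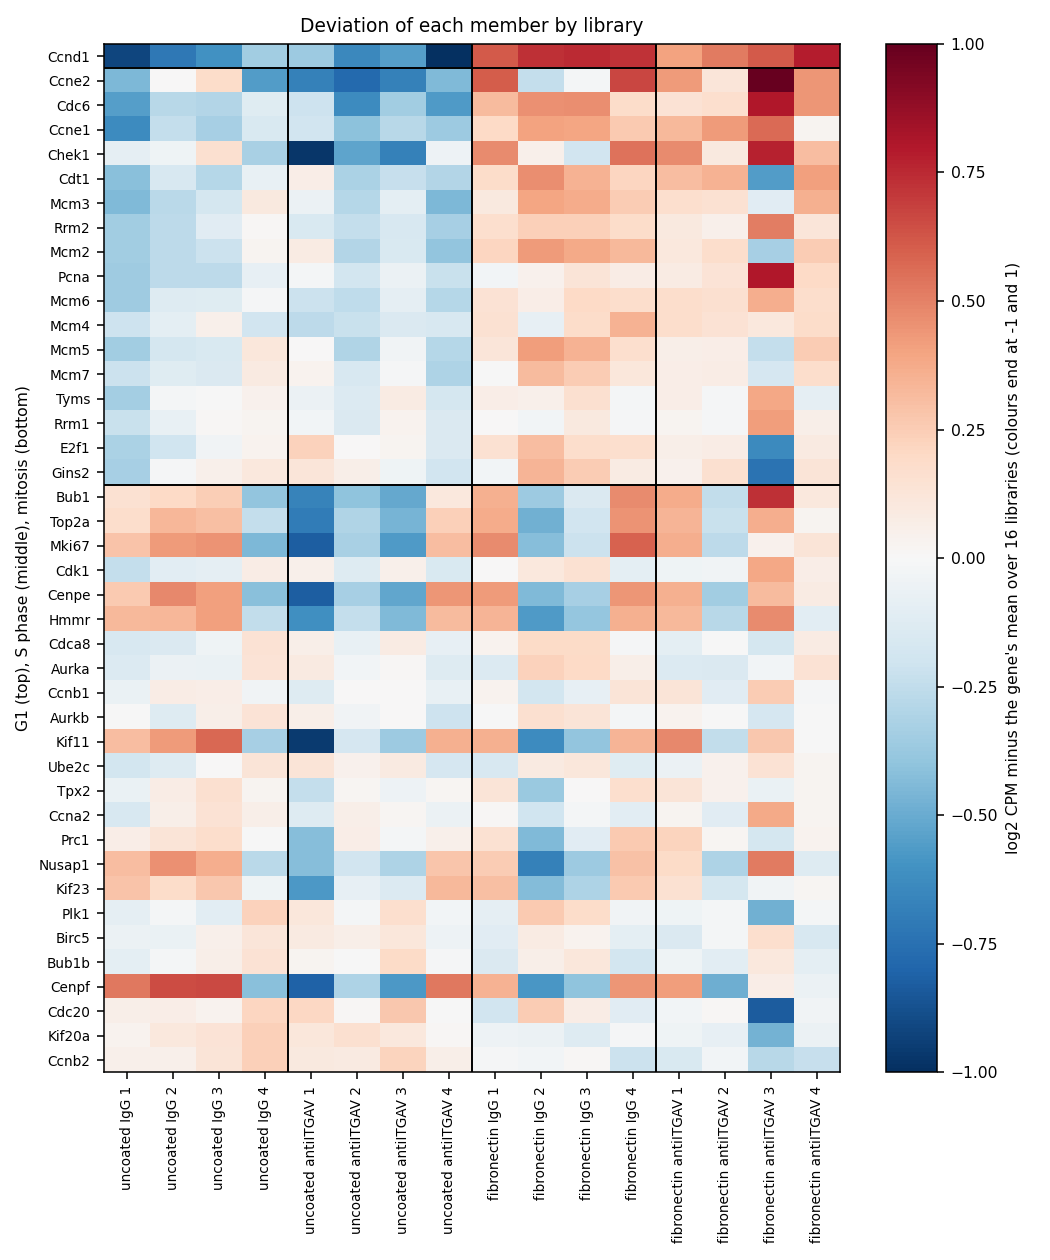
Log2 CPM of each gene minus its mean over the 16 libraries (colour), with genes in rows, Ccnd1 on top, then S phase and mitotic genes, and libraries in columns by group. Most S phase rows change colour between the uncoated and fibronectin blocks, with Gins2, E2f1, Rrm1 and Tyms among the exceptions. Most mitotic rows change between libraries within a block, while Ccnb2 and Kif20a are lower throughout the fibronectin blocks. The library fibronectin_antiITGAV replicate 3 is high for Ccne2, Cdc6, Pcna and Bub1 and low for E2f1, Gins2, Cdt1 and Cdc20.

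The S phase and mitotic genes were then set side by side within each library. The mean deviation of log2 CPM over the 17 S phase genes lay between -0.35 and -0.057 in the 8 uncoated libraries and between 0.14 and 0.22 in the 8 fibronectin libraries, with no overlap. Over the 24 mitotic genes it lay between -0.26 and 0.18 on uncoated plates and between -0.18 and 0.14 on fibronectin. The difference of the 2 classes' median log2 changes, S phase minus mitosis, was 0.39 under IgG, 0.26 under anti-ITGAV and 0.35 in the average. No p is given for these scores, since the members were chosen with results of these data known. Gene by gene, 15 of 17 S phase members were higher on fibronectin under both antibodies, the exceptions being Gins2 and E2f1, and 4 of 24 mitotic members were, beside 29.4% of all genes tested. Of the other mitotic members, 15 had opposite signs under the 2 antibodies and 5 were lower under both. Of all 15469 genes tested, 4553 were higher under both, 4358 were lower under both, and the others had opposite signs. In 4 S phase members (Mcm6, Rrm2, Ccne1 and Cdc6) and in Ccnd1 all 8 fibronectin libraries were above all 8 uncoated ones, as in 2.01% of all genes, and in Ccnb2 and Kif20a all 8 were below, as in 1.81%.

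**Figure D4:**
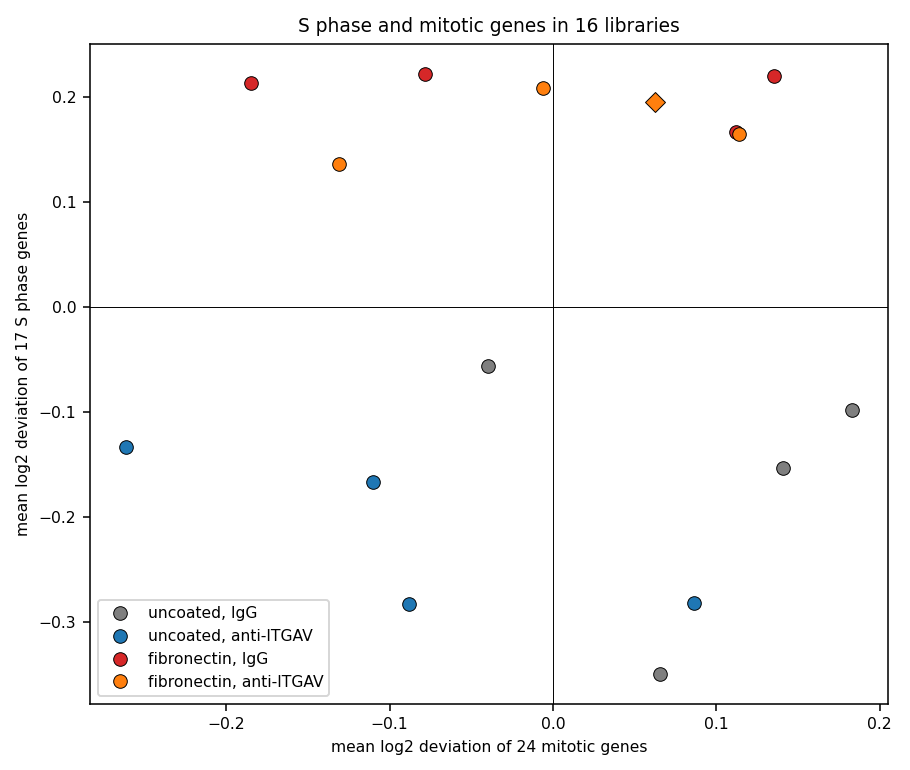
Mean log2 deviation of the 17 S phase genes (y axis) against that of the 24 mitotic genes (x axis), 1 point per library, coloured by group; the diamond is fibronectin_antiITGAV replicate 3. All 8 fibronectin libraries lie above 0.13 and all 8 uncoated libraries below 0 on the S phase axis, while both spread over the mitotic axis.

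**Figure D5:**
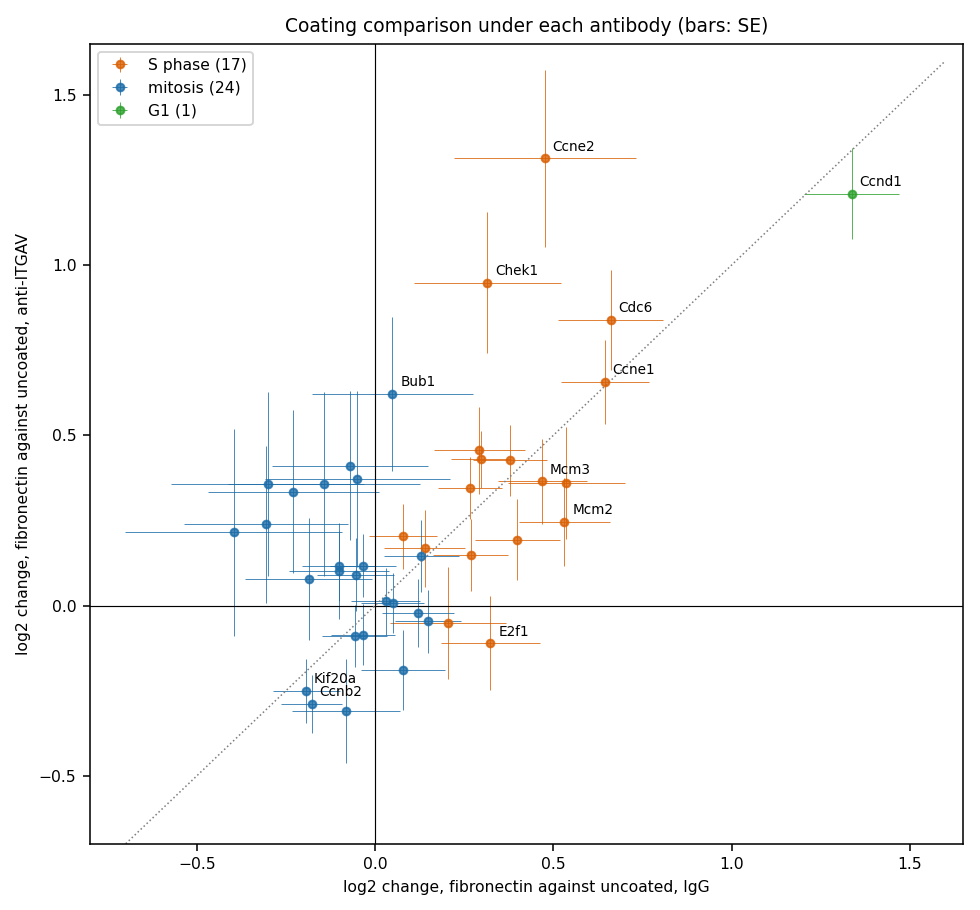
Log2 change on fibronectin under anti-ITGAV (y axis) against that under IgG (x axis) for the 42 genes, with SE bars; the dotted line marks equal values and the axes share no library. S phase genes lie in the upper right except Gins2 and E2f1, and the 24 mitotic genes lie between -0.40 and 0.15 under IgG and between -0.31 and 0.62 under anti-ITGAV.

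The antibody against αV integrin changed no member detectably. On uncoated plates 0 of 42 members passed edgeR's test, 1 had an unadjusted p under 0.05 (Chek1, -0.45 ± 0.21 (SE), adjusted p = 0.988), and 0.0129% of all genes were called. On fibronectin 0 of 42 passed, 1 had an unadjusted p under 0.05 (Pcna, 0.28 ± 0.13 (SE), adjusted p = 0.721), and 0.0129% of all genes were called. Averaged over coatings 0 passed, 1 had an unadjusted p under 0.05 (Pcna, 0.20 ± 0.090 (SE), adjusted p = 0.9999), and 0.0711% of all genes were called. Without fibronectin_antiITGAV replicate 3 the Pcna values were 0.085 (adjusted p = 1.0000) on fibronectin and 0.10 (adjusted p = 0.9996) in the average, and with the GC correction the first was 0.041 (adjusted p = 0.998). DESeq2 also called 0 members in these comparisons. For Ccnd1 the log2 change with the antibody was 0.0098 ± 0.13 (SE) on uncoated plates and -0.12 ± 0.13 (SE) on fibronectin. The averaged interval for Ccnd1, -0.25 to 0.14, is far from the size of its coating change, and for Mki67 the interval was -0.68 to 0.090.

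Whether the coating effect depended on the antibody was tested by the interaction. It called 0 of 42 members and 0% of all genes, and 3 members had an unadjusted p under 0.05 (Ccne2, Chek1 and E2f1). E2f1 gave -0.43 ± 0.20 (SE), adjusted p = 0.646, which was -0.29 (adjusted p = 0.845) without fibronectin_antiITGAV replicate 3 and -0.16 (adjusted p = 0.9600) with the GC correction. The difference between the coating effects of the antibodies was thus not shown for any member, even where a member was called under 1 antibody and not under the other.

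Further genes of the same processes were taken from lists written with earlier results of these data known. In the averaged coating comparison 6.58% of all genes tested were called higher and 5.26% lower. Of 54 other replication genes, 28 rose in the averaged coating comparison and none fell, with a median log2 change of 0.28. They include the origin recognition genes Orc6 (0.57 ± 0.092 (SE), adjusted p = 5.47e-04) and Orc1 (0.63 ± 0.11 (SE), adjusted p = 0.00139). Gmnn, which encodes the CDT1 inhibitor geminin, gave 0.31 ± 0.059 (SE), adjusted p = 0.00225, and Pole, the leading-strand polymerase, gave 0.32 ± 0.066 (SE), adjusted p = 0.00326. Under IgG alone 3 of the 54 rose (Uhrf1, Pole and Timeless), and under anti-ITGAV 8 rose, led by Orc6, Hells, Rad51ap1 and Orc1. Of all genes, 2.37% were called higher under IgG and 2.84% under anti-ITGAV. Without fibronectin_antiITGAV replicate 3 the counts of the 54 were 17 under IgG and 6 under anti-ITGAV, beside 5.5% and 3.04% of all genes. With the GC correction the counts were 21 and 24, beside 6.44% and 6.48% of all genes. Of 58 other mitotic genes none rose and 1 fell, Cenpa, the centromeric histone, with a log2 change of -0.24 ± 0.054 (SE), adjusted p = 0.00682, and their median was 0.029.

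Upstream of S phase, 12 of the 29 tested genes (of 30 listed) for other G1 cyclins, kinases and transcription factors rose in the average. None fell, and the median was 0.21, beside 6.58% of all genes called higher. Myc, a growth-related transcription factor, read 7.81 ± 2.33, 8.83 ± 1.63, 21.6 ± 3.65, 24.8 ± 4.49 CPM (mean ± SD, n = 4, in uncoated_IgG, uncoated_antiITGAV, fibronectin_IgG and fibronectin_antiITGAV), and its averaged log2 change was 1.48 ± 0.14 (SE), adjusted p = 3.49e-06. Cdc25a, the phosphatase that activates CDK2, changed by 0.63 ± 0.072 (SE), adjusted p = 2.35e-05. The cyclin gene Ccnd2 changed by 0.59 ± 0.087 (SE), adjusted p = 2.57e-04, and E2f8, a repressing E2F factor, by 0.43 ± 0.066 (SE), adjusted p = 3.29e-04. Cdk6, a partner of the D cyclins, read 112.5 ± 11.6, 114.3 ± 11.1, 168.8 ± 41.2 and 176.2 ± 13.6 CPM in the same order of groups. Its log2 change under anti-ITGAV was 0.62 ± 0.14 (SE), adjusted p = 0.0142, beside 2.84% of all genes called higher there.

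Of 28 CDK inhibitor and arrest genes, 3 rose and 7 fell in the average, with a median of -0.020. Of all genes, 6.58% were called higher and 5.26% lower. With the GC correction 9 of the 28 were called higher and 11 lower, beside 11.9% and 9.85% of all genes. Cdkn2b, an inhibitor of CDK4 and CDK6, read 2.97 ± 0.344, 2.65 ± 0.717, 6.03 ± 0.9203, 6.404 ± 1.400 CPM in the same order of groups and rose by 1.15 ± 0.14 (SE), adjusted p = 6.60e-05. Klf2, a transcription factor linked to quiescence, rose by 0.49 ± 0.084 (SE), adjusted p = 8.93e-04. Gadd45a, a stress-induced growth arrest gene, changed by -0.71 ± 0.10 (SE), adjusted p = 1.61e-04, and Rbl2, the retinoblastoma family member p130, by -0.38 ± 0.062 (SE), adjusted p = 5.85e-04. Among the 9 tested genes (of 11 listed) of growth factor input, 2 rose, of which Pdgfb gave 0.41 ± 0.12 (SE), adjusted p = 0.03598, and 3 fell, the receptor genes Csf3r (-0.76 ± 0.091 (SE), adjusted p = 3.99e-05), Csf2rb (-0.34 ± 0.063 (SE), adjusted p = 0.00161) and Csf2rb2 (-0.25 ± 0.055 (SE), adjusted p = 0.00571).

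Markers of other cells of the marrow moved with the coating as well. The counts below stand beside 6.58% of all genes called higher and 5.26% called lower. Of 12 myeloid progenitor markers, 5 fell and 1 rose in the averaged comparison, with a summed level of 44.0 to 50.3 CPM on uncoated plates and 22.0 to 41.5 CPM on fibronectin. Of 7 mast cell and basophil markers 3 fell, with sums of 19.99 to 33.5 CPM uncoated and 8.67 to 19.6 CPM on fibronectin. Of 5 tested lymphocyte markers (8 listed) 2 fell, with sums of 58.3 to 75.7 CPM and 28.2 to 42.2 CPM. Nearly all of the lymphocyte sum was Ighm, with a mean of 50.1 CPM, and Cd79a was next at 0.49 CPM. Of 12 neutrophil markers 4 fell, with sums of 390.0 to 536 CPM and 290.1 to 510 CPM, and of 5 tested fibroblast markers (9 listed) 3 fell, with sums of 17.97 to 25.7 CPM and 13.2 to 20.3 CPM. Of 2 tested erythroid markers (8 listed) 1 fell, with sums of 2.28 to 4.65 CPM and 1.45 to 2.89 CPM. Hba-a2 was at 0 in all libraries, and so was Lum among the fibroblast markers. The progenitor, mast cell and lymphocyte sums did not overlap between coatings, the lymphocyte sum resting on Ighm, and the other sums did. The part of these markers in the S phase values was not tested.

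Of the 42 members, 18 overlap another gene in the deposited annotation, and for 8 of them the overlapping gene had at least 10% of the member's mean count (Ccna2, Cdc20, Kif20a, Nusap1, Cdca8, Mcm7, Ccne2 and Gins2). The labels name dTTP for the second cDNA strand, which leaves no mark of strand, and a strand setting for counting is not given in the sources used here. Reads of these 8 and of their partners on the opposite strand therefore cannot be told apart where they overlap, and their values are less certain.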

How the data were processed

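Polyadenylated RNA of 16 mouse macrophage samples was sequenced as read pairs. The authors deposited 1 table of raw counts and 1 of FPKM per gene, and the submitters' processing notes name HISAT2, StringTie and featureCounts, with mm10 and GRCm38.p6 as genome builds and tool versions not given in the sources used here. For genes with at least 10 counts in a library, each deposited FPKM value equalled the count over gene length and library size within 0.1%. This was up to a library constant of 0.989 to 1.04 against the count total. Counts were tested with edgeR 4.0.16 (R 4.3.3; quasi-likelihood, robust, TMM, 1 mean per group, all 16 libraries) in 7 contrasts after edgeR's filterByExpr (minimum count 10), with Benjamini-Hochberg adjustment over all 15469 genes and a threshold of 0.05. Shown CPM are TMM-scaled, and FPKM served for levels across genes. The tests were also run on simulated counts, and the outcome is not reported here. No pairing of libraries by replicate number was seen, which does not exclude one, and no 2 libraries of a group agreed within sampling noise. The members, the further lists and the tests were chosen with earlier results of these data known. Values per library are given for members called in a comparison, at most 8 each by smallest p, and for 12 members always, and further genes are named if called, at most 4 per list and comparison. The alternatives were DESeq2 1.42.0, limma 3.58.1 on log2(FPKM + 1), other scalings and filters, a GC offset (loess span 0.5), a replicate block, the compared libraries alone and each library left out.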

Additional observations from a re-analysis of the deposited data

Results flagged for a closer look

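In 15 of 168 sets of 4 libraries (42 genes in 4 groups), 1 library stood apart from the other 3 of its group by Dixon's criterion, where chance gives about 1 in 20. Of these, 10 were fibronectin_antiITGAV replicate 3, the library with the raised mitochondrial share. It was high in its group for Mcm6 (288 CPM), Pcna (682 CPM), Rrm1 (373 CPM) and Rrm2 (110.0 CPM). It was low for Cdc20 (36.7 CPM), Plk1 (53.9 CPM), Kif20a (48.9 CPM), Cdt1 (36.6 CPM), Gins2 (16.4 CPM) and E2f1 (33.3 CPM). Uncoated_IgG replicate 4 stood apart for Cdc20 (75.8 CPM, above its group) and for Cenpf (47.5 CPM) and Hmmr (57.1 CPM, both below it). E2f1 was high in fibronectin_IgG replicate 2 (64.4 CPM), and Ccnd1 was low in fibronectin_IgG replicate 1 (388 CPM).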

How the results depend on the processing

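Over 28 alternatives no member's called change reversed its direction. Of all member values, 7942 kept their side of the threshold, 90 lost a call and 74 gained one. These values include members not called and the antibody and interaction comparisons, in which no member was called. Single calls were less stable, and that of Pcna under anti-ITGAV was kept in 9 of 28 alternatives. The number of the 42 members called under IgG, 5 with all libraries, was 9 with DESeq2, 9 with the 8 compared libraries alone, 3 with the replicate block, 2 with limma on unfiltered log2(FPKM + 1), 14 with the GC offset, and 15 with the GC offset and fibronectin_antiITGAV replicate 3 left out, an alternative chosen after seeing the data. Leaving out each library in turn gave 2 to 11, the lowest without uncoated_IgG replicates 1, 2 or 3 or fibronectin_IgG replicate 3 (3 without fibronectin_IgG replicate 4, and 8 without uncoated_IgG replicate 4) and the highest without fibronectin_antiITGAV replicate 3. Under IgG the share of all genes called higher was 2.37% with all libraries, 1.45% with the block and 6.44% with the GC offset. Without fibronectin_antiITGAV replicate 3 it was 5.5%, and 8.06% with the GC offset too. Under anti-ITGAV 9 members were called with all libraries, 5 with the 8 compared libraries alone and 14 with the GC offset. The count was 14 with the GC offset and that library left out, and 6 to 11 with each library left out. Of all genes, 2.84% were called higher there with all libraries, 6.48% with the GC offset and 5.97% with both changes. In the average 15 members were called with all libraries, and 13 to 16 with each library left out. For DESeq2, limma and the compared libraries alone these shares are not given. The S phase minus mitosis difference was 0.35 to 0.46 under IgG, 0.19 to 0.37 under anti-ITGAV and 0.32 to 0.40 in the average with each library left out. The cause of these shifts was not tested. In the average, single calls were lost for Ccnb2 without a low-count filter (adjusted p = 0.0606), Kif20a with the replicate block (adjusted p = 0.0552) and Cdt1 with limma on unfiltered values (adjusted p = 0.0767). Same-numbered libraries of different groups had correlated deviations of -0.30 to 0.28, over 0.1 in 4 of 24 pairs, and 2 of 24 correlated best with their own number, so the block rests on a shared number only. With 4 libraries a group, changes inside the intervals given were not excluded.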
